A study of Gossypium hirsutum with 6 samples.

Results

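The comparison of fiber at 8 dpa (days post-anthesis, counted from flowering) with fiber at 5 dpa describes early elongation in TM1, an Upland cotton (*G. hirsutum*) cultivar grown in the greenhouse without any treatment named in the labels. Its members are the 11858 probes of a cotton fiber oligonucleotide array that carry a value at all 6 stages of the deposited table, out of 12263 rows. The 380 rows without values, the 1 row named n/a and the 24 control features were left out, and 17 probe numbers occur in 2 entries, so that 11841 probe numbers are covered. All 6 profiles (8, 10, 14, 17, 21 and 24 dpa) are log2 ratios to the same 5 dpa fiber, so that 1 stands for a doubling and -1 for a halving of the transcript level. Each stage is 1 profile, a coefficient fitted by the authors over the hybridizations of a double loop with dye swaps. With no replicates behind it that could be separated, the replicate spread is unknown and no p-value is given, and below "higher" and "lower" without a further value mean at least 2-fold from 5 dpa. In a bulk RNA sample, less RNA per cell and fewer cells of a type cannot be told apart.

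A cotton fiber is a single epidermal cell of the seed coat that elongates without dividing. In early elongation the cell enlarges by turgor, which water and solute uptake into the large vacuole maintains, while the primary wall is loosened and new wall, membrane and cuticular lipid are laid down. Microtubules and actin filaments guide the delivery of wall material, and thick cellulose deposition follows only later, in the secondary wall.

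Gene names are known only for a set that the study selected, as given below. Among the 45 described genes with spot signals above the buffer spots, single probes of lipid, vacuolar membrane and cell wall genes lay furthest above 5 dpa. A long chain fatty acid elongation enzyme, which extends fatty acids for waxes and membrane lipids, was at a log2 ratio of 2.71. A tonoplast intrinsic protein, a water channel of the vacuolar membrane, reached 2.07, a beta-galactosidase precursor 1.51 and a xyloglucan endotransglycosylase 1.22. Other genes of these kinds did not follow: a second tonoplast protein lay at 0.04, a second beta-galactosidase at -0.92 and a CER1-like protein at -0.33. Glutathione S-transferase, a detoxification enzyme, lay at -1.88, an ethylene-responsive RNA helicase at -1.43 and flavanone 3-hydroxylase, an enzyme of flavonoid synthesis, at -1.37. These genes were taken only from probes with such signals in both scanner images of the 8 dpa sample. Of all 58 described genes, 9 were higher and 4 lower, and 4 and 3 of these had such signals. Which stages and dyes those images compare is not settled. The ratios of the spots in those images were all nearer 0 than the deposited ones. For the beta-galactosidase precursor they were 0.54 and 0.41, and for glutathione S-transferase -0.56 and -0.53. For the helicase they lay near 0 (0.16 and -0.01). The probes with the most extreme ratios in the whole profile mostly had no such signal.

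Most deposited ratios lay close to 0. The authors' lowess normalization centres the ratios of each array, so a shift common to most probes could not be seen. The median log2 ratio over the 11858 probes was 0.00, the SD over probes was 0.56, and the middle part of the distribution between the quartiles ran from -0.26 to 0.27. At least 2-fold higher were 375 probes, 3.16% of those tested, and at least 2-fold lower were 327, or 2.76%, together 702 probes or 5.92%. Higher probes made up 53.4% of them. At 1.5-fold the counts were 1147 higher and 1107 lower, at 3-fold 112 and 97, at 4-fold 61 and 41, and at 8-fold 22 and 12. The whole range ran from -5.83 to 7.43. At the later stages, against the same 5 dpa fiber, the corresponding SDs were 0.52 (10 dpa), 0.61 (14 dpa), 0.77 (17 dpa), 0.77 (21 dpa) and 1.06 (24 dpa). A fixed fold cuts through a continuous distribution. The probe just past 2-fold higher lay at 1.00023 and the one just short of it, a beta-tubulin, at 0.999371, and on the lower side the 2 neighbours of the threshold lay at -1.00157 and -0.999543.

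**Figure D1:**
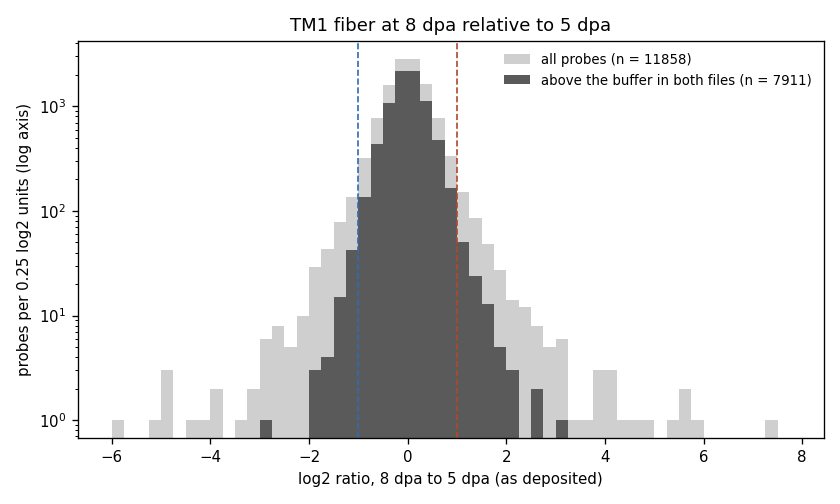
Number of probes (log axis) by deposited log2 ratio of 8 dpa to 5 dpa in classes of 0.25, for all 11858 probes (light) and for the 7911 probes above the buffer spots in both scanner images (dark), with dashed lines at the 2-fold thresholds. The tails beyond 3 and -3 are almost entirely light, with 1 dark probe past 3 and none past -3.

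The scanner images of the 8 dpa sample, 1 for each of the 2 dyes, show how much fluorescence stood behind each ratio. After subtraction of the local background the median spot signal of the probes was 356 in Cy3 and 389 in Cy5. A probe is called above the buffer here when its mean signal exceeded, in both images, the mean plus 3 SD of the buffer spots without the 2 brightest of them, which was 198 in Cy3 and 179 in Cy5. The 2 bright buffer spots, at 4739 and 3423 in Cy3 and at 6693 and 4892 in Cy5, would otherwise raise these limits to 1012 and 1415. Of the probes, 11510 had at least 1 spot without a flag in either image, and 348 had none. Above the buffer in both images were 7911 of the 11510, or 68.7%.

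Higher and lower probes were dimmer than the rest. At least 1 unflagged spot was left for 309 of the 375 higher and 279 of the 327 lower probes, against 11510 of all 11858. Of the 309 higher probes with a signal, 98 were above the buffer in both images (31.7%, exact 95% binomial interval 26.6 to 37.2%), and of the 279 lower probes 65 were (23.3%, 18.5 to 28.7%). The intervals cover counting error only. Among the 10922 probes within 2-fold of 5 dpa, 7748 or 70.9% were above the buffer. A further 50 higher probes exceeded the limit only in Cy5 and 0 only in Cy3, and among lower probes 3 exceeded it only in Cy5 and 27 only in Cy3. With the count restricted to the 7911 probes above the buffer, 98 were higher (1.24%) and 65 lower (0.822%), together 163 or 2.06%. The milder limit of the buffer median kept 11269 probes, of which 270 (2.4%) were higher and 246 (2.18%) lower, together 4.58%. The limit with the bright buffer spots kept in left 1376 probes, of which 4 were higher and 4 lower (0.291% each, 0.581% together).

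The share of probes past 2-fold declined with brightness. When the 11510 probes were divided by mean signal into 10 equal classes of 1151, 20.7% of the dimmest class were higher or lower, 9.82% of the next and 3.74% of the third. It then ranged from 3.91% in the fourth class to 0.869% in the brightest. The SD of the deposited ratios was 0.90 in the dimmest class and 0.34 in the brightest. The 2 dimmest classes held 351 of the 588 higher or lower probes with a signal (59.7%), and the 5 brightest held 112 (19.0%). In the dimmest class, lower probes outnumbered higher ones by 134 to 104, and in the 5 brightest together higher probes outnumbered lower ones by 74 to 38. The part of signal strength in these counts was not tested.

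**Figure D2:**
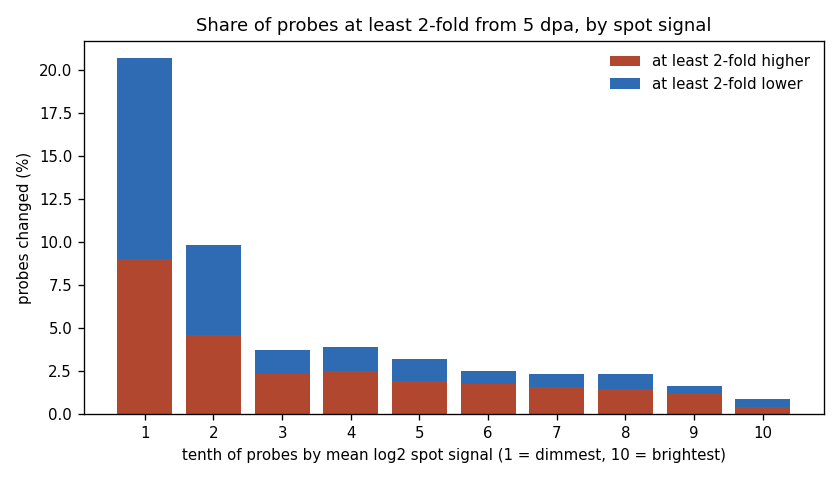
Percent of probes at least 2-fold higher (red) and lower (blue) at 8 dpa in 10 classes of equal size by mean log2 spot signal, from the dimmest to the brightest. The stacked share drops from 20.7% in the dimmest class to 0.869% in the brightest.

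Each probe is printed in 2 spots, which gives a technical spread within the array. The ratio of the scanner pair is Cy5 over Cy3 after background correction and loess normalization. Between the spots of a probe it differed with an SD of 0.074 on the log2 scale over 10992 probes. In 3 of these the spots were 2-fold or more apart. The background correction added an offset of 50, which draws the ratios of dim spots towards 0 and narrows this spread. The spread was not computed with plain subtraction, so it is no measure of noise beside the deposited ratios. The labels do not say which stage was labelled with which dye in this pair, nor whether its 2 dyes held 8 and 5 dpa fiber or another pair of stages from the loop. Neither the direction of its ratio nor the stages it compares are settled, and the values below set it beside the deposited ratio only as Cy5 over Cy3. In that orientation it correlated across probes with the deposited ratio at r = 0.42 over 11510 probes and at 0.52 over the 7911 above the buffer. In the dimmest of the 10 classes r was 0.317 and in the brightest 0.697. Probes are not replicates, and the deposited ratio may include these same spots, so that r is a description only, and its sign turns with the dyes.

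The spread of the ratios was compared over all probes with both spots, whatever their ratio. Above the buffer (7841 probes) the SD over probes was 0.39 as deposited, 0.21 in the scanner pair and 0.30 with plain subtraction of the background. Over all 10992 it was 0.48 as deposited and 0.19 in the scanner pair. With plain subtraction it was 0.49 over the 10950 of them that kept a ratio. The difference thus depended on the background correction when dim probes were included. The following medians are of probes chosen by their deposited ratio, which fixes the deposited side past 1, and are a description. For the 96 higher probes above the buffer with both spots, the median was 1.24 as deposited and 0.21 in the scanner pair, or 0.46 with plain subtraction. For the 64 lower probes it was -1.15 as deposited, -0.25 in the scanner pair and -0.49 with plain subtraction. As Cy5 over Cy3, 79 of the 96 higher probes (82.3%) had a scanner ratio above 0 and 56 of the 64 lower ones (87.5%) a ratio below 0. With the dyes turned, 17 of the 96 and 8 of the 64 would lie on the side of the deposited ratio. Among 7681 probes above the buffer and within 2-fold of 5 dpa, 3848 were above 0. In 7 higher and 2 lower probes of this set both spots were themselves at least 2-fold from 0.

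**Figure D3:**
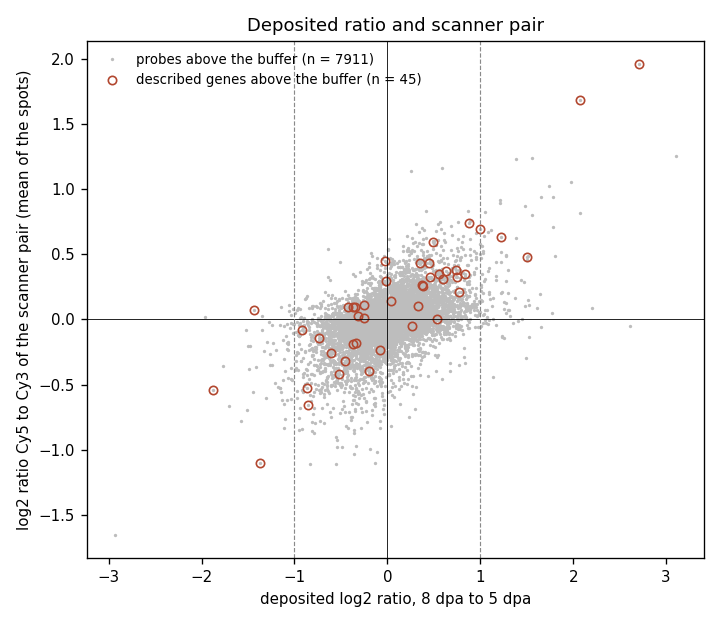
Mean log2 ratio of Cy5 to Cy3 in the scanner pair (y axis) against the deposited log2 ratio of 8 dpa to 5 dpa (x axis), for the 7911 probes above the buffer (grey) and the 45 described genes among them (red rings). The cloud runs from lower left to upper right (r = 0.52), and the elongation enzyme (2.71 deposited) and the tonoplast protein (2.07) are the 2 ringed points at the upper right.

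Gene names are known here for 58 probes with a functional description, which belong to a set of 125 genes that the study selected. They differed between TM1 and the *G. barbadense* cultivar Pima S7 at 17 and 24 dpa and were also called developmentally regulated, relative to 5 dpa at any stage, in both. The ratios at 8 dpa were thus among the values that could place a gene in the set, and a share of higher or lower genes above that of the array is no independent finding. Of the 58 described genes, 9 were higher and 4 lower at 8 dpa (22.4%), with a median of 0.21, against 5.92% and a median of 0.00 over all probes. Above the buffer were 45 of them, of which 4 were higher and 3 lower. Among the 66 other genes of the set with values, 12 were higher and 5 lower. For 35 of the 45 described genes above the buffer the scanner ratio lay on the same side of 0 as the deposited one, namely 22 of 23 above 0 and 13 of 22 below 0, taken as Cy5 over Cy3. With the dyes turned it would be 10 of 45. The counts for the functional groups below are few, and over all probes 3.16% were higher and 2.76% lower, so nothing particular to a group is read from them.

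The lipid genes included the described gene with the second highest ratio. The long chain fatty acid elongation enzyme (GA_10dpa_fiberEST_01869) gave spot signals of 742 and 857 in Cy3 and of 3539 and 3682 in Cy5, and its scanner ratios were 2.01 and 1.91. Both Cy5 spots were far brighter than both Cy3 spots, and the deposited log2 ratio was 2.71. From 10 to 24 dpa it lay at 2.32, 2.55, 2.54, 0.88 and 0.37, so that 8 dpa was its highest stage. A beta-ketoacyl-CoA synthase (GA_10dpa_fiberEST_12309), the condensing enzyme of the same elongation cycle, was at 0.75, with scanner ratios of 0.23 and 0.42. The endoplasmic reticulum omega-3 fatty acid desaturase (GA_10dpa_fiberEST_12708), which introduces a double bond into membrane fatty acids, was at 0.49 at 8 dpa, its highest stage, and at -2.26 and -3.47 at 21 and 24 dpa. A lipid transfer protein (GA_10dpa_fiberEST_12134) lay at 0.26 and a CER1-like protein (GA_10dpa_fiberEST_10650), related to a wax synthesis protein of *Arabidopsis*, at -0.33. Of these 5 lipid genes, 1 was higher and 0 were lower, against 3.16% and 2.76% of all probes and 22.4% of the described genes in either direction, with a median of 0.49.

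Water channels were the next group. The tonoplast protein ZmTIP4-4 (GA_10dpa_fiberEST_06183) gave 430 and 530 in Cy3 and 2211 and 2184 in Cy5, with scanner ratios of 1.76 and 1.61 beside the deposited 2.07. Its spots did not overlap between the dyes. The ratio was already near its highest value at 8 dpa, since the later stages lay at 1.86, 2.25, 2.13, 1.68 and 1.24 from 10 to 24 dpa. The plasma membrane aquaporin PIP2-2 (GA_10dpa_fiberEST_12638) lay short of 2-fold, at 0.88, with scanner ratios of 0.78 and 0.71. A second tonoplast protein, bobTIP26-1 (GA_10dpa_fiberEST_10986), was at 0.04, its highest stage, with signals of 1969 and 2297 in Cy3. The 2 tonoplast probes were both above the buffer, and only ZmTIP4-4 was past 2-fold.

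Genes that loosen or remodel the wall lay on both sides of 0. The beta-galactosidase precursor (GA_10dpa_fiberEST_03757), of an enzyme family that trims galactose from wall polysaccharides, had 495 and 596 in Cy3, 933 and 958 in Cy5, and scanner ratios of 0.54 and 0.41 beside the deposited 1.51. It was highest at 8 dpa and lay at 1.18, 1.16, 0.80, -0.12 and -0.19 at the following stages. A second beta-galactosidase (GA_10dpa_fiberEST_04269) lay at -0.92, with scanner ratios of -0.07 and -0.09, and at -1.49 at 17 dpa. Xyloglucan endotransglycosylase (GA_10dpa_fiberEST_12158), which cuts and rejoins the xyloglucan chains between cellulose microfibrils, was at 1.22, with 335 and 380 in Cy3, 787 and 873 in Cy5 and scanner ratios of 0.62 and 0.65. It lay at 1.08 at 10 dpa, its lowest stage, and between 1.62 and 2.06 from 14 to 24 dpa. Expansin 1 (GA_10dpa_fiberEST_00974), a wall-loosening protein, was at 0.44 at 8 dpa, its lowest stage, and between 0.47 and 1.32 later. Its spots differed most among the described genes above the buffer, with scanner ratios of 0.25 and 0.62. Of these 4 genes, 2 were higher and 0 lower, against 3.16% and 2.76% over all probes and 22.4% of the described genes in either direction.

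**Figure D4:**
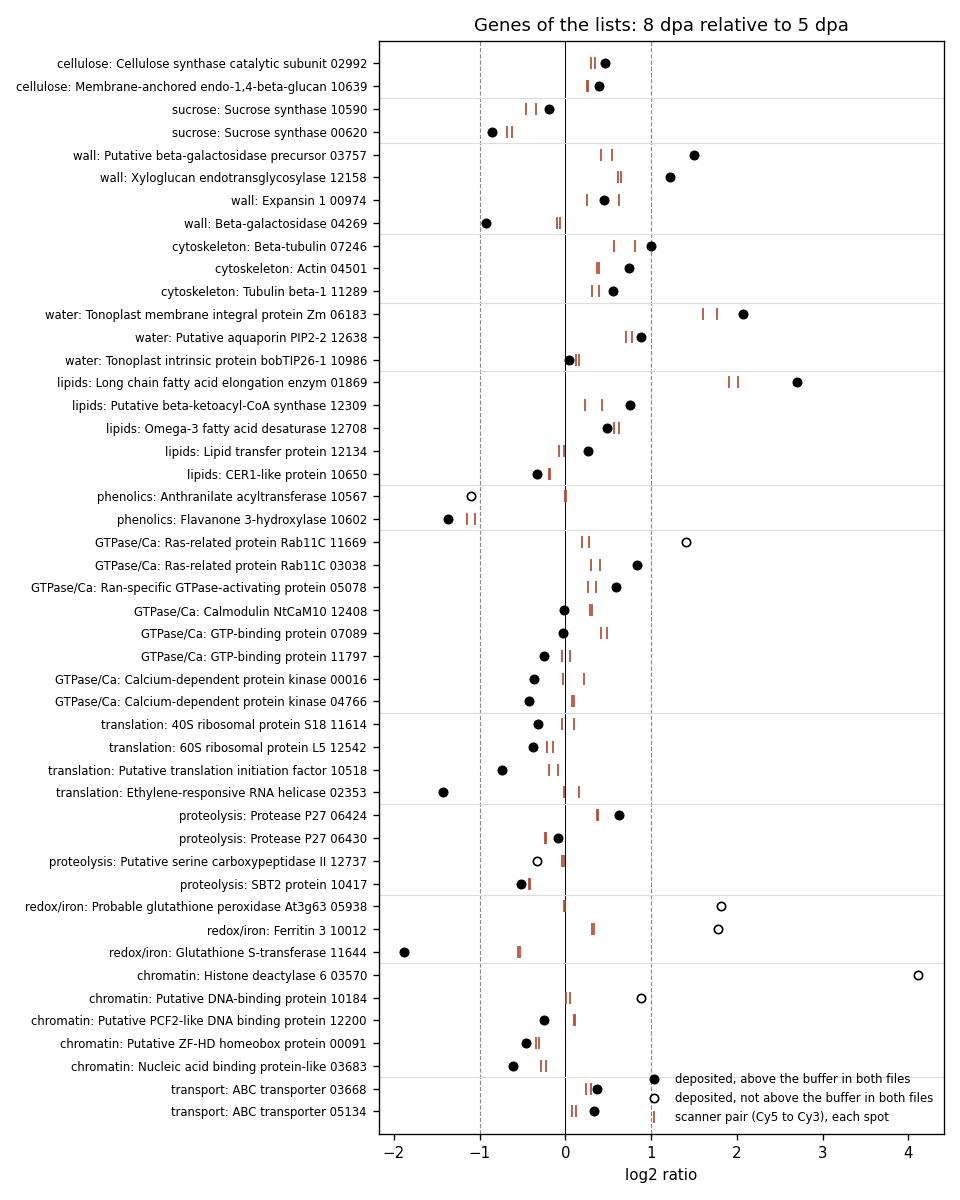
Deposited log2 ratio of 8 dpa to 5 dpa (circles, filled where the probe was above the buffer in both images) and the scanner ratio of each spot (red ticks) for the 47 described genes placed in 13 functional groups, with dashed lines at 2-fold. Filled circles past the lines are the elongation enzyme, the tonoplast protein, the beta-galactosidase precursor and xyloglucan endotransglycosylase on the right and glutathione S-transferase, RNA helicase and flavanone 3-hydroxylase on the left.

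The 3 cytoskeleton genes all lay above 0, as did 5981 of all 11858 probes, and below 2-fold. Beta-tubulin (GA_10dpa_fiberEST_07246), a subunit of microtubules, was at 1.00 when rounded and just short of the threshold, with 952 and 980 in Cy3 and 1887 and 1632 in Cy5. Tubulin beta-1 (GA_10dpa_fiberEST_11289) was at 0.55, the brightest of the 3, with 4452 and 4555 in Cy3 and 6848 and 6624 in Cy5. Actin (GA_10dpa_fiberEST_04501), the subunit of microfilaments, was at 0.74, with scanner ratios of 0.40 and 0.36. The actin ratio was above 0 at 8 dpa alone, since it lay at -0.11, -0.00, -0.18, -0.42 and -0.98 from 10 to 24 dpa, whereas both tubulins lay between 0.45 and 1.34 at every stage.

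Cellulose and sucrose genes were within 2-fold. The cellulose synthase catalytic subunit (GA_10dpa_fiberEST_02992) was at 0.46, and its other entry in the table at 0.54. The membrane-anchored endo-1,4-beta-glucanase (GA_10dpa_fiberEST_10639), of a family needed for cellulose formation in *Arabidopsis*, was at 0.39. Sucrose synthase, which cleaves sucrose into fructose and the UDP-glucose used for cellulose, was described on 2 probes. The one (GA_10dpa_fiberEST_00620) was at -0.85, with 1128 and 1015 in Cy3, 775 and 655 in Cy5 and scanner ratios of -0.63 and -0.68, and its other entry lay at -0.47. The other (GA_10dpa_fiberEST_10590) was at -0.20, with -0.26 in its other entry, and at -2.85 at 21 dpa. Over the 17 probe numbers with 2 entries in the table, the entries differed with an SD of 0.20 and by at most 0.76, and 0 pairs were 2-fold apart. The entries of GA_10dpa_fiberEST_00620 both lay below 0 and both within 2-fold.

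Both genes of phenylpropanoid and flavonoid metabolism were lower, against 2.76% of all probes and 4 of the 58 described genes. Flavanone 3-hydroxylase (GA_10dpa_fiberEST_10602), which makes dihydroflavonols, had 1685 and 1329 in Cy3 and 826 and 676 in Cy5, with scanner ratios of -1.15 and -1.05 beside the deposited -1.37. Both spots were thus past 2-fold in the scanner pair as well. The ratio was -0.50 at 10 dpa and between -1.31 and -1.92 from 14 to 24 dpa. The anthranilate N-hydroxycinnamoyl/benzoyltransferase (GA_10dpa_fiberEST_10567), of a family that acylates phenolic compounds, was deposited at -1.10, with signals of 45.6 and 59.8 in Cy3 and of 51.9 and 73.9 in Cy5. These are under the buffer limits, and the scanner ratios were -0.01 and 0.01. At such signals the background correction draws scanner ratios towards 0, so they cannot be weighed against the deposited value.

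The 3 redox and iron genes held 2 higher and 1 lower, but only the lower one was above the buffer. Over all probes 3.16% were higher and 2.76% lower, and over the 58 described genes 9 and 4. Glutathione S-transferase (GA_10dpa_fiberEST_11644) had 1090 and 1117 in Cy3 and 788 and 826 in Cy5, with scanner ratios of -0.56 and -0.53 beside the deposited -1.88. It was the lowest described gene at 8 dpa and was lower at all 6 stages, down to -4.28 at 24 dpa. Ferritin 3 (GA_10dpa_fiberEST_10012), a plastid iron store, was deposited at 1.78, with 97.8 and 122 in Cy3 and 291 and 336 in Cy5, so that only Cy5 passed its limit. A probable glutathione peroxidase (GA_10dpa_fiberEST_05938), which reduces peroxides, was deposited at 1.81, with -7.61 and 64.3 in Cy3, -7.68 and 72.2 in Cy5 and scanner ratios of -0.02 and -0.01. For that probe neither dye passed its buffer limit in the images of this sample. The background correction draws scanner ratios of so dim a probe towards 0, so they cannot be weighed against the deposited value.

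Among small GTPases and calcium signalling genes, 1 of 8 was higher and 0 lower, against 22.4% of the described genes and 5.92% of all probes in either direction, with a median of -0.02 and a mean of 0.22. Rab11C, a GTPase of vesicle traffic, was described on 2 probes, at 1.40 (GA_10dpa_fiberEST_11669) and 0.84 (GA_10dpa_fiberEST_03038). The first was dim, with 98.0 and 75.2 in Cy3 and 270 and 195 in Cy5, and the second was above the buffer with scanner ratios of 0.40 and 0.29. A Ran-specific GTPase-activating protein (GA_10dpa_fiberEST_05078), of nuclear transport, was at 0.59. Calmodulin NtCaM10 (GA_10dpa_fiberEST_12408), a calcium sensor, lay at -0.02, as did a GTP-binding protein (GA_10dpa_fiberEST_07089) that was at 3.29 at 17 dpa. The other GTP-binding protein (GA_10dpa_fiberEST_11797) was at -0.25, and the 2 calcium-dependent protein kinases (GA_10dpa_fiberEST_00016 and GA_10dpa_fiberEST_04766) were at -0.37 and -0.43. The mean scanner ratios of these 5 genes, all deposited below 0, lay above 0 as Cy5 over Cy3. They were 0.30, 0.45, 0.01, 0.10 and 0.09 in the order named. Those of the 3 genes deposited above 0 were above 0 too.

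All 4 genes placed in the ribosome and translation group lay below 0, as did 5877 of all 11858 probes, and 1 was lower, against 2.76% of all probes. The lower gene was placed in the group although its description names neither. It was an ethylene-responsive RNA helicase (GA_10dpa_fiberEST_02353) at -1.43, with 268 and 313 in Cy3, 393 and 342 in Cy5 and scanner ratios of 0.16 and -0.01. Of the 7 described genes past 2-fold and above the buffer, the mean scanner ratio of this 1 lay on the other side of 0 from the deposited ratio when taken as Cy5 over Cy3, and that of the other 6 would with the dyes turned. The initiation factor eIF-1A (GA_10dpa_fiberEST_10518) was at -0.73, ribosomal protein L5 (GA_10dpa_fiberEST_12542) at -0.38 and ribosomal protein S18 (GA_10dpa_fiberEST_11614) at -0.32, and all 3 were within 2-fold.

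Proteases were within 2-fold at 8 dpa. Of 2 probes described as protease P27, one (GA_10dpa_fiberEST_06424) lay at 0.63 and the other (GA_10dpa_fiberEST_06430) at -0.08, and both had their lowest stage at 8 dpa, with 3.05 and 3.60 at 21 dpa. SBT2 (GA_10dpa_fiberEST_10417), described only by that name, lay at -0.52, and a serine carboxypeptidase II (GA_10dpa_fiberEST_12737), which removes C-terminal residues, at -0.33. The 2 ABC transporters (GA_10dpa_fiberEST_03668 and GA_10dpa_fiberEST_05134), ATP-driven membrane pumps, were at 0.37 and 0.33, both their highest stage.

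The highest described ratio, 4.11, belonged to histone deacetylase 6 (GA_10dpa_fiberEST_03570), a chromatin enzyme. The probe had no unflagged spot in this sample's images. Its later values were 4.18, 4.81, 5.56, -4.93 and 5.63 from 10 to 24 dpa. Of the other 4 genes of transcription and chromatin, a putative DNA-binding protein (GA_10dpa_fiberEST_10184) was at 0.88 without a signal above the buffer. A PCF2-like DNA-binding protein (GA_10dpa_fiberEST_12200) was at -0.25, a ZF-HD homeobox protein (GA_10dpa_fiberEST_00091) at -0.46 and a nucleic acid binding protein (GA_10dpa_fiberEST_03683) at -0.61. The median of the 5 was -0.25 and their mean 0.73, which differ in sign through the deacetylase. Outside the groups, the growth-on protein GRO11 (GA_10dpa_fiberEST_00067) was at 1.12, its highest stage, with 201 and 164 in Cy3, 169 and 289 in Cy5, and scanner ratios of -0.10 and 0.18.

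**Figure D5:**
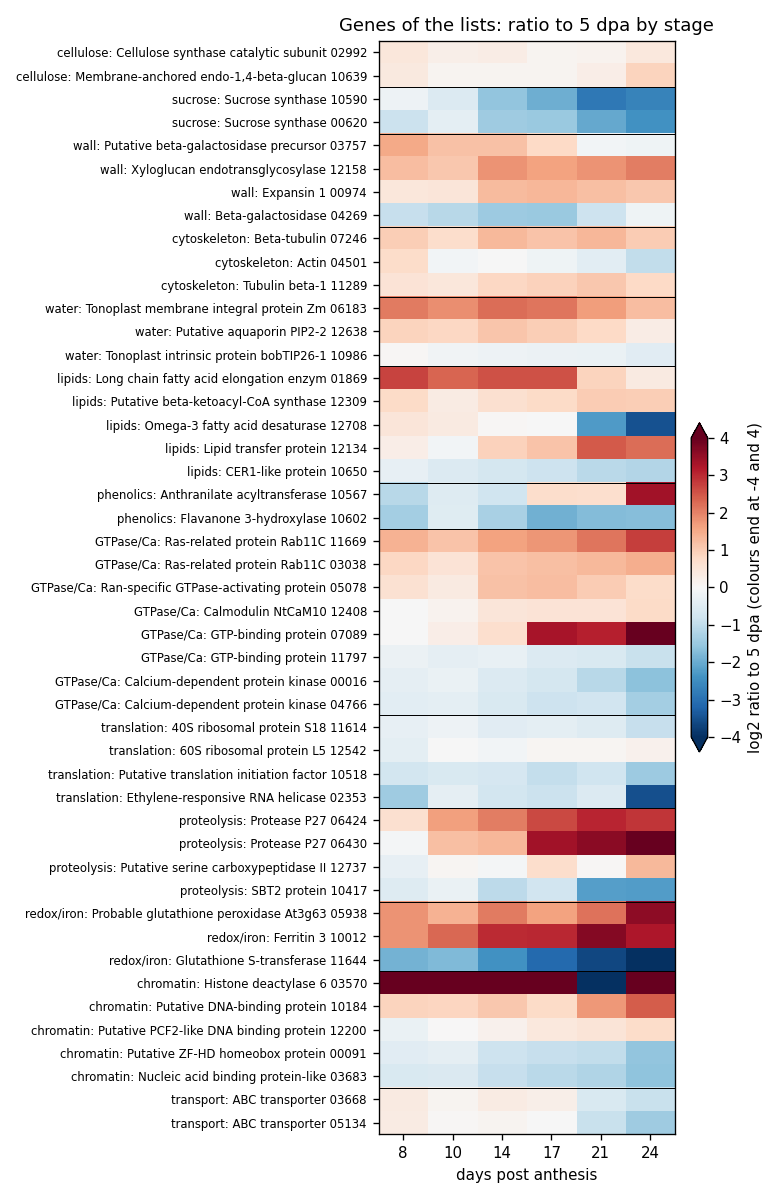
Deposited log2 ratio to 5 dpa (colour scale, ending at -4 and 4) of the same 47 genes at 8, 10, 14, 17, 21 and 24 dpa, all relative to the same 5 dpa fiber. Actin is red at 8 dpa only, the elongation enzyme is dark red through 17 dpa, and the sucrose synthase and glutathione S-transferase rows are darkest blue at 21 and 24 dpa.

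Set beside the later stages, which share the 5 dpa fiber, 13 of the 58 described genes had their highest ratio at 8 dpa and 15 their lowest. The first included the elongation enzyme, the beta-galactosidase precursor, actin, the omega-3 desaturase and the cellulose synthase. The second included ferritin, expansin 1 and both P27 proteases. The share of all probes with their highest or lowest ratio at 8 dpa was not computed. Whether the counts of 13 and 15 differ from those of the array was therefore not tested. The described genes belong to a set selected for differences between the cultivars at later stages. The SD over all probes was 0.56 at 8 dpa and 1.06 at 24 dpa. No test of the stage differences could be made with 1 profile per stage.

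Probes without a gene name held the extremes of the profile. The highest were GA_10dpa_fiberEST_06225 at 7.43 and GA_10dpa_fiberEST_11090 at 5.87, both with no unflagged spot in the images of this sample. The former stayed between 7.73 and 9.82 at the later stages, and the latter was at 1.14 at 10 dpa and 0.31 at 24 dpa. The lowest were GA_10dpa_fiberEST_01828 at -5.83, with mean signals of 36.6 in Cy3 and 1.22 in Cy5, and GA_10dpa_fiberEST_00672 at -5.19, with 15.9 and -23.5. Of the 20 highest probes (3.07 to 7.43) 9 had an unflagged spot and 1 was above the buffer, and the same counts held for the 20 lowest (-5.83 to -2.73). The highest probe above the buffer, chosen after its values were seen, was at 3.10, with 390 in Cy3, 1463 in Cy5 and a scanner ratio of 1.25, and lay between 2.95 and 5.14 at the later stages. The lowest above the buffer, chosen likewise, was at -2.93, with 1102 and 274 and a scanner ratio of -1.65, and lay between -4.35 and -2.35 later.

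Control features and position on the array were examined with the same measures. Of the 24 control features with values, 5 were higher and 2 lower at 8 dpa, together 29.2% against 5.92% over all probes. Of the 14 above the buffer 2 were higher or lower, 14.3% against 2.06% of the probes above it. The hygromycin resistance gene hph, a bacterial sequence, was deposited at 2.95 with mean signals of 53.6 and 81.9, and GhCesA-1, named for a cotton cellulose synthase, at 2.98 with -9.07 and 55.6 on 1 unflagged spot, and neither was above the buffer. The highest control ratio, 4.34, was on a feature named only by a number (A005178_01) that was above the buffer, with near signals of 893 in Cy3 and 981 in Cy5. Large control ratios thus occurred on features with and without signal above the buffer. GhCesA-2 was above the buffer, with 570 and 660, and lay at 0.39. The 4 features for leaf chlorophyll a/b binding proteins lay at -1.85, -0.28, -0.95 and 0.60, with signals from 251 to 323 in Cy3 and from 141 to 343 in Cy5, and 3 of them were above the buffer. Their part in the results was not tested. Over the 48 printed blocks of the array, the median ratio ran from -0.053 to 0.066, and each block held 3 to 24 higher or lower probes.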

How the data were processed

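The labels name total RNA of TM1 fiber at 8 dpa and at 5 dpa, with dye swaps. The log2 ratios were deposited by the authors as LIMMA coefficients relative to 5 dpa. Before that fit, poor spots had been flagged by hand, the local background subtracted, weak spots and discordant dye swaps dropped, and the data lowess normalized. The ratios were used here as they stand. The authors' scanner files, deposited as raw intensity, give the spot mean, the local background mean and a flag. Of 12 such files, the 2 of the 8 dpa sample were used and 10 were not. They hold 25392 spots each, of which 1708 were flagged and left out. Scanner ratios were made with limma 3.58.1 in R 4.3.3 (normexp, offset 50, loess, spots averaged). A simulation with known folds checked the size of the recovered fold among the brighter probes only, not among dim ones. The number of arrays limits the precision, and their error could not be computed.

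Probes were called at 2-fold. Named are the described genes past 2-fold, every described member of 13 functional lists, and of unnamed probes the 2 highest and 2 lowest. Names come from the descriptions supplied with the study, since 0 probes matched the reference gene table, and no sequence was used here. The limit without the 2 brightest buffer spots was chosen after seeing the data. The members and lists were chosen with earlier results of these data known. The alternatives were folds of 1.5 and 3, centring, signal filters, the second entry of a probe number, other background corrections and means for medians. Markers of photosynthesis were looked for among the control features, and those of seed storage and cell division had no described probe. No column was left without a stage.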

Additional observations from a re-analysis of the deposited data

Results flagged for a closer look

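Signal was present in features that no deposited ratio describes. Of 186 rows without a ratio that had unflagged spots in the images of the 8 dpa sample, 8 exceeded the buffer in both dyes. Of 18 scanner features outside the table of profiles, 11 did, among them 4 named Cal and 7 named atc, and the brightest, Cal_03, had a mean of 14677 in Cy3 and 18249 in Cy5. What these features are is not given in the sources used here.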

How the results depend on the processing

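The counts moved with the fold and with the signal required. Against 375 higher and 327 lower probes, a fold of 1.5 gave 1147 and 1107, a fold of 3 gave 112 and 97, the brightest of 3 equal classes held 47 and 21, and the buffer limit with its 2 bright spots kept left 4 and 4. The limit without those spots, chosen after seeing the data, left 98 and 65. Centring on the median (372 and 329), the buffer median as limit (270 and 246) and counting every row with a value (380 and 329) stayed within 1.5 times. For the described genes, 9 higher and 4 lower became 18 and 10 at 1.5-fold, 5 and 1 at 3-fold, and 4 and 3 above the buffer. The correlation with the scanner pair was 0.48 with plain subtraction, over the 11343 probes that kept a ratio. It was 0.30 without background correction, 0.23 with median centring alone and 0.44 over probes above the buffer median. Means in place of medians gave 0.56 for wall loosening and remodelling, 0.78 for lipids, 0.22 for small GTPases and calcium signalling, 0.57 for redox and iron and 0.73 for transcription and chromatin, of which those of the GTPase and chromatin groups differ in sign from the median. Centring moved no list median by more than the spread between entries. No paired analysis was possible because each stage is 1 profile without replicates, and no replicate could be left out.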
